A study of Homo sapiens with 8 samples.

Results

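Chemokines are small secreted proteins that guide leukocytes to a tissue, and they are named by the spacing of the first cysteines in the mature protein. CXC chemokines that carry the residues Glu-Leu-Arg (ELR) before the first cysteine act on the receptors CXCR1 and CXCR2 and draw neutrophils, which enter the liver after ischemia and reperfusion. CCL20 draws CCR6-bearing lymphocytes and dendritic cells, CCL26 (eotaxin-3) draws eosinophils through CCR3, and CXCL16 is a membrane-bound chemokine that binds CXCR6 and also works as a scavenger receptor.

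The 9 genes described here are the CXC chemokines CXCL1, CXCL2, CXCL3, CXCL5, CXCL6, CXCL8 and CXCL16 and the CC chemokines CCL20 and CCL26, taken by their symbols from the 15767 genes of the count table. They were measured by RNA-seq in HuH7 cells, a human hepatoma-derived line of wild-type genotype. All cells spent 6 h without glucose at 1% oxygen and then 6 h under normoxia, a culture model of hepatic ischemia and reperfusion called oxygen-glucose deprivation and reperfusion (OGD/R). During reoxygenation the medium held DMSO, the solvent (I/R+DMSO, n = 4), or ginsenoside Rk2 at 20 µM, a rare saponin of ginseng (I/R+Rk2, n = 4). The question is therefore how the chemokine transcripts of cells given Rk2 differed from those of cells given DMSO (unstressed cells were not part of the comparison). The labels do not say whether the libraries of a group came from separate cultures, so p-values measure the spread between these libraries, which may be technical.

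The 6 genes with the ELR residues lie within 359 kb of chromosome 4 (chr4:73740506-74099293 in GRCh38, GENCODE v29), and CXCL16, CCL20 and CCL26 lie on chromosomes 17, 2 and 7. The stretches below show the codons that separate the 2 kinds of CXC chemokine. Each is 30 bases of coding sequence ending 15 bases after the ELR codons or at the corresponding place beside the first cysteines, and the capitals mark the codons for Glu-Leu-Arg, which lie in exon 2 in all 6 genes.
CXCL1 (chr4:73869680-73869709, plus strand): gccactGAACTGCGCtgccagtgcttgcag
CXCL2 (chr4:74098882-74098911, minus strand): gccactGAACTGCGCtgccagtgcttgcag
CXCL3 (chr4:74038373-74038402, minus strand): gtcactGAACTGCGCtgccagtgcttgcag
CXCL5 (chr4:73998289-73998318, minus strand): ttgagaGAGCTGCGTtgcgtttgtttacag
CXCL6 (chr4:73836984-73837013, plus strand): ctgacaGAGCTGCGTtgcacttgtttacgc
CXCL8 (chr4:73741562-73741591, plus strand): gctaaaGAACTTAGAtgtcagtgcataaag
CXCL16, without these codons (chr17:4738874-4738903, minus strand): agcgtcactggaagttgttattgtggtaaa
CCL20, with adjacent cysteines (chr2:227815456-227815485, plus strand): gcaagcaactttgactgctgtcttggatac
CCL26, with adjacent cysteines (chr7:75771966-75771995, minus strand): gacatatccaagacctgctgcttccaatac
CXCL1 and CXCL2 are identical over this stretch, CXCL5 and CXCL6 share the spelling of the ELR codons, and CXCL8 spells them differently from the other ELR genes. Over the whole coding sequence CXCL2 was 94.4% identical to CXCL3 and 93.5% to CXCL1, and CXCL5 was 87.4% identical to CXCL6. This likeness bears on counting. Of all 50-base words in the GENCODE transcript of CXCL1, 5.73% also occur in another gene, against 9.24% for CXCL2, 5.26% for CXCL3, 3.04% for CXCL16 and 1.12% for CXCL5, and none of those of CXCL6, CXCL8, CCL20 and CCL26 do. Counts of CXCL1, CXCL2, CXCL3, CXCL5 and CXCL16 are uncertain for this reason, but these shares do not bound the error. The error also depends on the level of the gene that shares the words. CXCL1 had a mean of 1284 counts per library against 391 for CXCL2. CXCL6 shares exonic bases with a pseudogene on its own strand, PPBPP1, and the exons of CXCL16 overlap MED11 on the other strand. Whether the counting used strand is not given in the sources used here.

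The promoters of the ELR genes share a second short sequence. NF-kB, the transcription factor through which TNF and IL-1 induce these genes, binds kB sites, and one of their spellings, GGAATTTCC, was looked for on both strands in the 250 bases before each RefSeq gene start (GRCh38.p14). It was found in 6 of the 8 member promoters in the table, all of them ELR genes, and in 0.413% of all 35116 promoters. CXCL16 had no promoter there and was not searched. The stretches below give 30 bases around each match on the strand of the gene, with the match in capitals.
CXCL8 (chr4:73740467-73740496, 91 bases before the start): ttgcaaatcgtGGAATTTCCtctgacataa
CXCL6 (chr4:73836578-73836607, 89 bases before the start): cctgagttcagGGAATTTCCccagcatccc
CXCL1 (chr4:73869304-73869333, 78 bases before the start): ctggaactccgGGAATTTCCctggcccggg
CXCL5 (chr4:73998749-73998778, 90 bases before the start): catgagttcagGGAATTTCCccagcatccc
CXCL3 (chr4:74038749-74038778, 78 bases before the start): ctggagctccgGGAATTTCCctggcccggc
CXCL2 (chr4:74099254-74099283, 77 bases before the start): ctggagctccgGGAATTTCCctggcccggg
The flanks of CXCL5 and CXCL6 are nearly the same, as are those of CXCL1, CXCL2 and CXCL3, and only the flanks of CXCL8 stand alone. Over the full upstream window CXCL5 and CXCL6 were 85.3% identical, CXCL1 and CXCL3 81.4%, and CXCL1 and CXCL2 70.1%. A looser kB spelling, GGG, any 5 bases and CC, which can overlap the first, was found in 7 of the 8 member promoters, that of CCL20 included, and in 54.4% of all promoters. The AP-1 motif TGANTCA was found in 1 member promoter, that of CXCL8, 137 bases before the start, and in 6.57% of all promoters. A match is a description of the letters only.

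Library totals ranged from 16374082 to 30310479 counts. HuH7 cells had all 10 hepatocyte markers looked at, among them AFP and ALB, with a summed 11691 to 12755 CPM (counts scaled to the TMM-normalized library size) in the DMSO group and 12536 to 12927 with Rk2. Of these, APOB was called higher (log2 fold change 0.61, edgeR adjusted p = 0.0124) and FGB lower (-0.27, edgeR adjusted p = 0.0462). Defining markers of macrophages (CD163, CSF1R, C1QA, C1QB, VSIG4), leukocytes (PTPRC, CD2, MS4A1, NKG7, S100A8) and endothelial cells (VWF, CDH5, KDR) were listed at 0 in every library. Markers of leukocytes summed to 13.6 to 18.1 CPM with DMSO and 10.6 to 12.5 with Rk2, nearly all from S100A9, which was called lower. Those of macrophages summed to 44.8 to 56.3 and 40.8 to 55.8 CPM (CD68), those of endothelial cells to 9.23 to 10.8 and 10.3 to 11.7, and those of stellate cells, with DCN at 0, to 21.1 to 25.1 and 21.1 to 23.7. Of 5 cholangiocyte markers, at 307 to 331 and 321 to 330 CPM, KRT19 was called lower. The part of S100A9-bearing or KRT19-bearing cells in the results was not tested. The library I/R+DMSO replicate 1 stood apart on the second principal component of all genes, at 78.7 against -48.6 to -41.4 in the other 3 of its group, so results are also given without it.

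Chemokine expression in these cells was carried by a few genes. Levels between genes are compared as FPKM, fragments scaled to transcript length and library depth. CCL20 was the most abundant of the 9 genes with a mean of 448 ± 20.4 FPKM (SD over all 8 libraries), and it ranked 129 among the 15756 genes above 0 FPKM. CXCL5, a neutrophil attractant first found in epithelial cells, followed with 322 ± 27.7 FPKM, and CXCL8, the most studied human neutrophil attractant, with 119 ± 10.8 FPKM. These 3 genes made up most of the summed chemokine FPKM, with shares of 45.2% for CCL20, 32.5% for CXCL5 and 12.0% for CXCL8. CXCL1 was at 47.8 ± 5.87 FPKM. In all 8 libraries each of CCL20, CXCL5, CXCL8 and CXCL1 stood above the next, with no overlap of their ranges.

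The order below CXCL1 was less clear. CXCL16 had a mean of 18.7 ± 3.38 FPKM, CXCL2 13.7 ± 1.35, CXCL6 11.6 ± 2.27 and CXCL3 9.94 ± 1.10 (SD, n = 8 each). Their order differed between the groups. In I/R+DMSO, CXCL6 at 12.6 to 15.0 FPKM lay within the range of CXCL2, at 11.5 to 15.9, and above CXCL3, at 9.43 to 10.8, in all 4 libraries. In I/R+Rk2, CXCL6 at 9.19 to 10.3 FPKM lay below CXCL2, at 12.6 to 14.8, in all 4 libraries and within the range of CXCL3, at 8.39 to 11.8. CXCL16 exceeded CXCL2 in all 8 libraries, with overlapping ranges in I/R+DMSO and separate ones in I/R+Rk2. CCL26 had a mean of 0.134 FPKM and was listed at 0 in 5 of the 8 libraries.

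**Figure D1:**
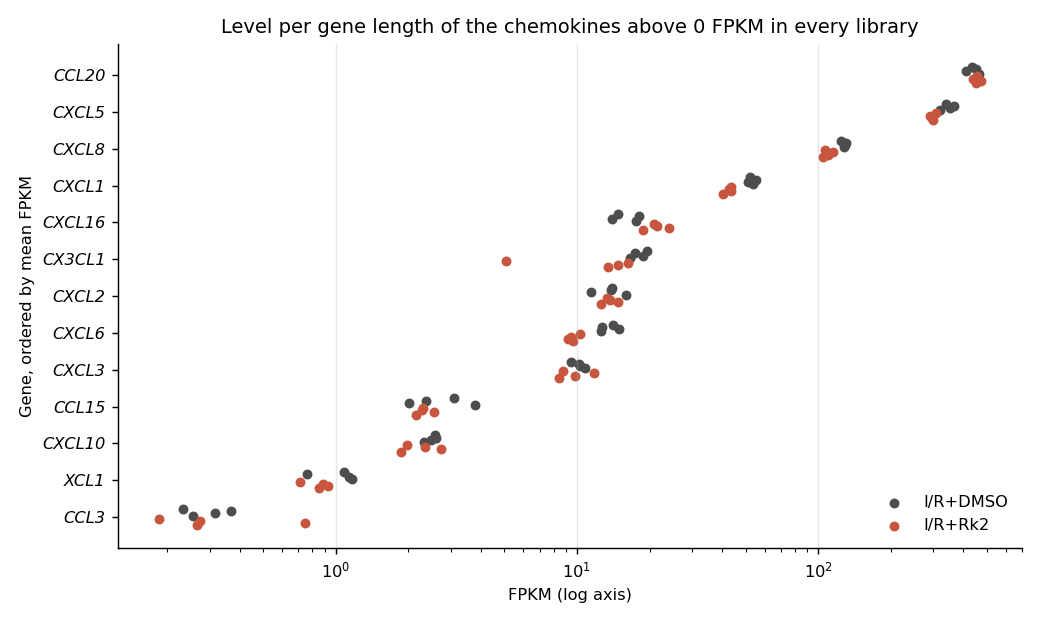
Each point is 1 library and the horizontal log axis gives FPKM, with I/R+DMSO in grey and I/R+Rk2 in red. Shown are the 8 chemokines that passed the count filter and 5 other chemokines that also passed it and were above 0 FPKM in every library. CCL20 lies near 448 FPKM and CXCL3 near 9.94 FPKM, and of the other 5 genes only CX3CL1 has a mean in that range.

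With Rk2, 4 of the 6 ELR chemokines were lower (CXCL1, CXCL5, CXCL6 and CXCL8), CXCL16 was higher, and CXCL2, CXCL3 and CCL20 did not pass the test. In edgeR's quasi-likelihood test over 12910 genes, with Benjamini-Hochberg adjustment and a threshold of 0.05, 7.24% of all tested genes were called lower and 11.0% higher. Of the 9 chemokines 8 were tested, of which 4 were called lower and 1 higher. These 8 had between 190 and 27767 counts in every library, far above the filter of 10, while CCL26 stayed under it. The median log2 fold change (I/R+Rk2 over I/R+DMSO) was -0.22 over the 8 tested chemokines and -0.25 over the 6 ELR genes, against 0.00 over all tested genes, of which 50.3% were negative. In RNA of whole cultures, fewer cells that make a chemokine and less of its RNA per cell cannot be told apart.

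CXCL6, which binds both CXCR1 and CXCR2, changed most among the ELR genes. Its normalized CPM was 24.6, 24.4, 20.2 and 22.2 in I/R+DMSO replicates 1 to 4, and 14.7, 13.8, 14.5 and 14.6 in I/R+Rk2. The groups did not overlap, and the 4 libraries given Rk2 lay close to each other. The group means were 22.9 ± 2.07 and 14.4 ± 0.435 CPM (SD over 4 libraries), so the fitted log2 fold change was -0.66 with a standard error of 0.0760 and a 95% interval of -0.84 to -0.49 (edgeR adjusted p = 0.00151). It was the only chemokine called with a change over 1.5-fold, which 3.04% of all tested genes reached.

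CXCL1, a neutrophil attractant that acts mainly on CXCR2, was at 72.0, 67.1, 73.3 and 68.9 CPM in I/R+DMSO and at 52.8, 56.1, 55.4 and 56.0 CPM in I/R+Rk2. Every library given Rk2 lay under every library given DMSO. The means were 70.3 ± 2.84 and 55.1 ± 1.53 CPM (SD, n = 4 each), and the log2 fold change was -0.35 with an interval of -0.46 to -0.25 (edgeR adjusted p = 0.00249).

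CXCL8, also known as interleukin-8, was at 267, 260, 265 and 253 CPM in I/R+DMSO and at 211, 218, 226 and 211 CPM in I/R+Rk2. The groups were again apart, and the change was smaller than that of CXCL6. The group means were 261 ± 6.03 and 216 ± 7.36 CPM (SD over 4 libraries), and on the log2 scale the gene changed by -0.27 with an interval of -0.36 to -0.19 (edgeR adjusted p = 0.00318).

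CXCL5 was at 1001, 1079, 1118 and 1031 CPM in I/R+DMSO and at 910, 892, 870 and 920 CPM in I/R+Rk2, with no overlap. Its means were 1057 ± 51.7 and 898 ± 22.1 CPM (SD, n = 4 each), and its log2 fold change was -0.24 with an interval of -0.34 to -0.14 (edgeR adjusted p = 0.00938). Being the most abundant ELR gene, CXCL5 weighed most in their summed level. That sum ran from 542 to 588 FPKM with DMSO and from 476 to 490 FPKM with Rk2, and over all 9 chemokines from 994 to 1056 and from 943 to 984 FPKM.

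CXCL2 and CXCL3, close paralogs of CXCL1 with the same receptor, did not pass the test. CXCL2 was at 22.2, 16.3, 19.7 and 19.9 CPM in I/R+DMSO and at 17.8, 20.0, 19.0 and 17.8 CPM in I/R+Rk2. The I/R+DMSO libraries held both its highest and its lowest value, and the groups overlapped. The log2 fold change was -0.07 with an interval of -0.29 to 0.16 (edgeR adjusted p = 0.681), so a change as large as that of CXCL1 lies outside the interval. CXCL3 was at 11.7, 12.2, 12.3 and 11.7 CPM in I/R+DMSO and at 9.60, 10.7, 12.0 and 9.61 CPM in I/R+Rk2. In CXCL3 only I/R+Rk2 replicate 3 reached into the range of the other group. Its log2 fold change was -0.20 with an interval of -0.39 to 0.00 (edgeR adjusted p = 0.146), and this interval holds the values of CXCL1, CXCL5 and CXCL8.

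The kB match described above was thus present in the promoters of all 4 genes that were lower and also in those of CXCL2 and CXCL3. The promoter of CXCL16 was not among those searched, so whether it holds the match is not known here.

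CXCL16 moved the other way. It was at 31.2, 33.9, 32.0 and 36.5 CPM in I/R+DMSO and at 47.5, 42.9, 52.2 and 50.1 CPM in I/R+Rk2. All 4 libraries given Rk2 were above all 4 given DMSO. Its group means were 33.4 ± 2.33 and 48.2 ± 4.03 CPM (SD over 4 libraries), and its log2 fold change was 0.53 with an interval of 0.35 to 0.71 (edgeR adjusted p = 0.00406). The authors' FPKM put the libraries in another order, at 17.6, 13.9, 18.0 and 14.8 in I/R+DMSO and 18.8, 24.0, 21.5 and 20.8 in I/R+Rk2. On FPKM the groups did not overlap either, but limma on log2(FPKM + 1) gave an adjusted p of 0.0522 and a log2 fold change of 0.39, so the call rests on the counts. The gene MED11, whose exons overlap those of CXCL16, had a log2 fold change of -0.15 (edgeR adjusted p = 0.260).

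CCL20, the most abundant chemokine, was at 461, 400, 437 and 423 CPM in I/R+DMSO and at 436, 452, 414 and 432 CPM in I/R+Rk2. The values were interleaved. The means were 430 ± 25.5 and 433 ± 15.5 CPM (SD, n = 4 each), with a log2 fold change of 0.01 and an interval of -0.10 to 0.13 (edgeR adjusted p = 0.896). CCL26 had 7, 6, 0 and 4 counts in I/R+DMSO and 0 in each library of I/R+Rk2. Against a floor of 3 counts over the 4 libraries of I/R+Rk2, the 17 counts of I/R+DMSO were 5.98-fold higher after scaling to library totals. The floor covers counting error in I/R+Rk2 only, and the 17 counts are taken as exact, so this is not a lower bound. The two-sided exact permutation test of CPM gave p = 0.143, where the smallest possible p for 4 against 4 is 0.0286. At this depth CCL26 could be counted but not compared with confidence.

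**Figure D2:**
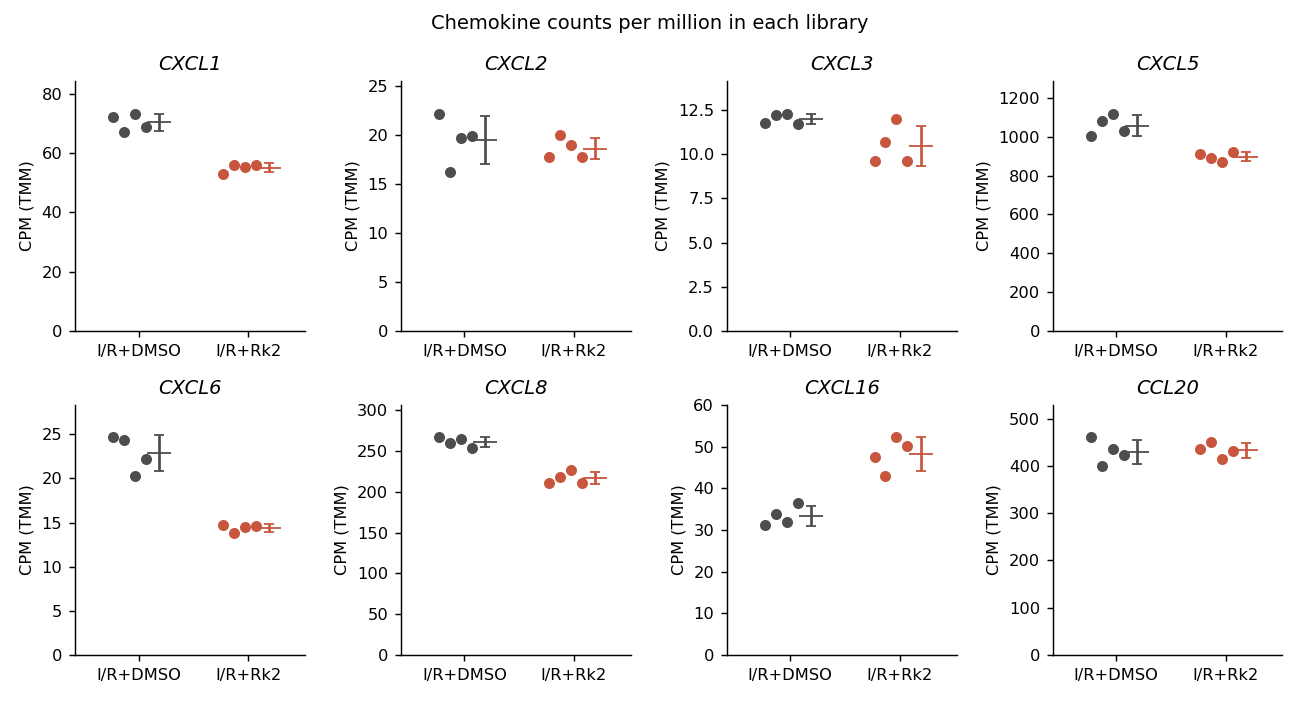
Each panel plots 1 chemokine in normalized CPM from 0, with 1 point per library in replicate order and the mean with its SD (n = 4) beside them. CXCL1, CXCL5, CXCL6 and CXCL8 sit lower in I/R+Rk2 and CXCL16 sits higher, all without overlap, while CXCL2, CXCL3 and CCL20 overlap.

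In 5 of the 8 tested chemokines the groups did not overlap, which held for 28.3% of all tested genes. These 5 were the same genes that passed the test. Without I/R+DMSO replicate 1, the library that stood apart, the same 5 were called, with log2 fold changes of -0.34 for CXCL1, -0.26 for CXCL5, -0.63 for CXCL6, -0.26 for CXCL8 and 0.50 for CXCL16, and that of CXCL2 was 0.00.

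Gene length moved with the fold changes over all genes, with a Spearman rho of 0.388 across 12908 genes, with no test, since genes do not vary independently. The tested genes had a median length of 2.92 kb, and the 8 chemokines ranged from 0.965 kb for CCL20 to 3.03 kb for CXCL5, so all but CXCL5 were shorter than the median gene. After a correction that removed the trend (rho -0.00), 8.57% of all tested genes were called lower and 8.87% higher. The same 4 chemokines were lower, with log2 fold changes of -0.57 for CXCL6 (adjusted p = 0.00188, edgeR), -0.23 for CXCL1 (adjusted p = 0.0166), -0.25 for CXCL5 (adjusted p = 0.00480) and -0.21 for CXCL8 (adjusted p = 0.00310). CXCL16 remained higher at 0.55 (edgeR adjusted p = 0.00380). CCL20 joined it at 0.18 with an interval of 0.08 to 0.27 (edgeR adjusted p = 0.0232), so for this shortest tested member the call turned on the length correction, and it was lost again when a replicate block was added (0.18, adjusted p = 0.0589). CXCL2 and CXCL3 were not called at 0.05 and -0.06 (edgeR adjusted p = 0.729 and 0.715). Of the called cell type markers, APOB at 0.29 and KRT19 at -0.45 kept their calls (edgeR adjusted p = 0.0147 and 0.000803). FGB at -0.22 and S100A9 at -0.29 lost theirs (edgeR adjusted p = 0.0837 and 0.137).

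**Figure D3:**
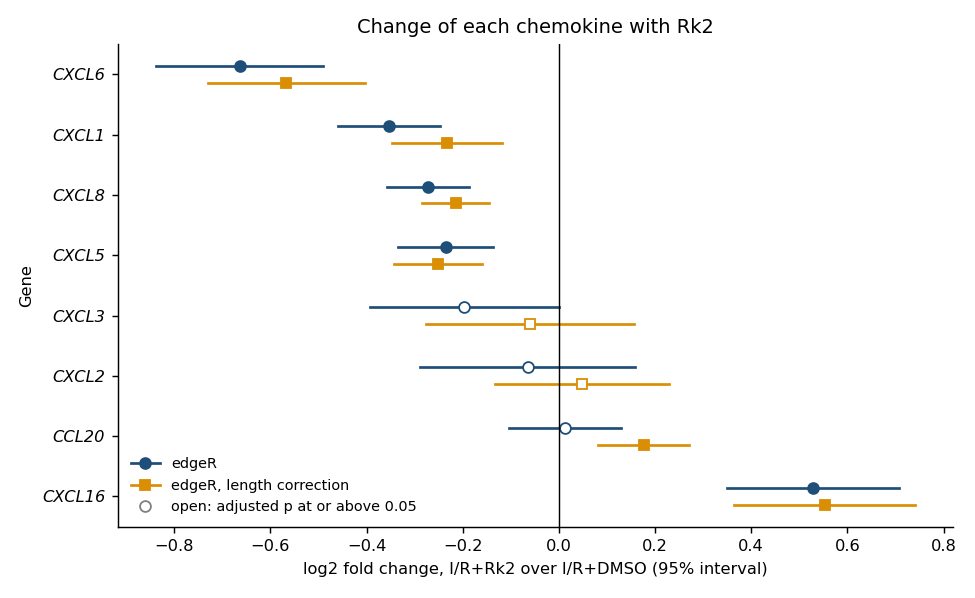
Points are log2 fold changes of I/R+Rk2 over I/R+DMSO with 95% intervals, from edgeR without (circles) and with (squares) the gene length correction, and filled symbols passed an adjusted p of 0.05. CXCL6 at -0.66 and CXCL16 at 0.53 lie farthest from 0, and CCL20 is filled only after the correction.

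Ratios of counts between chemokines within a library do not depend on how libraries are scaled. All 28 pairs of the 8 tested chemokines were compared. The groups were fully apart in 17 pairs, as they were in 22.7% of all pairs of tested genes with counts in every library. Since each gene enters 7 pairs and 5 of the genes were called, these ratios restate the changes above on another scale and carry no test. All 7 pairs with CXCL16 were among them. The count ratio of CXCL6 to CXCL16 ran from 0.609 to 0.789 with DMSO and from 0.278 to 0.321 with Rk2. Among the neutrophil attractants the ratio of CXCL1 to CXCL2 ran from 3.24 to 4.13 with DMSO and from 2.81 to 3.14 with Rk2. That of CXCL5 to CXCL6 ran from 40.6 to 55.3 and from 59.9 to 64.7, so CXCL6 lost more than its near paralog in these libraries. The ratio of CXCL8 to CCL20, the neutrophil attractant against the lymphocyte attractant, ran from 0.579 to 0.650 and from 0.482 to 0.547. The ratios among CXCL1, CXCL5 and CXCL8 overlapped between the groups in all 3 pairs.

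**Figure D4:**
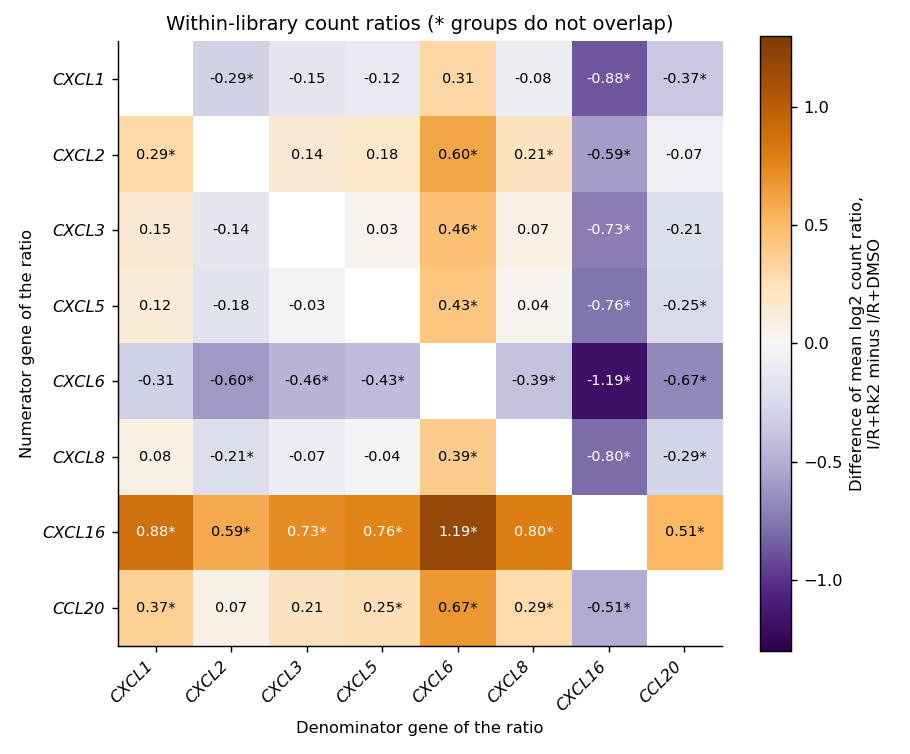
Each cell is the difference between the group means of the log2 count ratio of the row gene over the column gene, I/R+Rk2 minus I/R+DMSO, and a star marks the 17 pairs whose groups do not overlap. The row of CXCL16 is starred throughout and that of CXCL6 in all pairs but the one with CXCL1.

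The 3 genes whose profiles over the 8 libraries were most like that of CXCL1, and of CXCL8, were not chemokines. Few of the genes compared were chemokines. Likeness was the root mean square difference of log2 CPM, each gene centred on its own mean, over 12188 genes. COL9A2 (0.0369), SLC29A3 (0.0400) and DLX6 (0.0427) were nearest to CXCL1, and MIDN (0.0231), RIOX1 (0.0284) and OGFR (0.0299) to CXCL8. CXCL8 ranked 19 of 12188 among the neighbours of CXCL1, and CXCL1 ranked 110 of 12188 among those of CXCL8.

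Of 39 other chemokines looked at, 17 had any counts and 6 passed the filter. DESeq2, limma and voom called none of them, though limma with its mean FPKM minimum of 0.5 left out XCL2 and CCL3. None of the 6 was called by edgeR or had an unadjusted p below 0.05. CX3CL1 (fractalkine), which like CXCL16 is made as a membrane-bound protein, was the only one at the level of the genes above. It was at 73.8, 76.5, 81.4 and 79.2 CPM in I/R+DMSO and at 63.5, 68.3, 74.9 and 19.4 CPM in I/R+Rk2, where replicate 4 lay far below the rest. The log2 fold change was -0.46 with an interval of -1.28 to 0.36 (edgeR adjusted p = 0.401), and -0.18 without that library (adjusted p = 0.144). CXCL10, the interferon-induced attractant of T cells, had means of 3.57 ± 0.133 and 3.11 ± 0.549 CPM (SD, n = 4 each; edgeR adjusted p = 0.338). CCL15 was at 2.96 ± 0.870 and 2.45 ± 0.218 CPM (edgeR adjusted p = 0.401), and XCL1 was at 1.74 ± 0.328 and 1.39 ± 0.160 CPM (edgeR adjusted p = 0.258). XCL2 and CCL3 lay under 1 CPM in every library, with adjusted p-values of 0.878 and 0.968 in edgeR. XCL1 and XCL2, and CCL3 and CCL3L1, are near-identical paralogs, and the exons of CCL15 overlap those of CCL15-CCL14, so their counts are uncertain. The other 11 chemokines with counts averaged 0.50 to 7.38 counts per library, and 20 more, CCL2 and CCL5 among them, were listed at 0 FPKM throughout.

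The receptors of the ELR chemokines, CXCR1 and CXCR2, were listed at 0 FPKM in every library, and CXCR6, the receptor of CXCL16, had a mean of 1.63 counts. Of 24 chemokine receptors, 7 passed the filter, and 1 was called. This was CCR6, the receptor of CCL20, which was at 14.1, 16.2, 16.7 and 16.8 CPM in I/R+DMSO and at 11.7, 10.4, 11.4 and 12.4 CPM in I/R+Rk2. The groups did not overlap, and the log2 fold change was -0.47 with an interval of -0.66 to -0.27 (edgeR adjusted p = 0.00873). CCR6 shares exonic bases with Z94721.2, and the call was lost in limma on FPKM. CCR1 was at 2.30 ± 0.465 and 1.37 ± 0.367 CPM (SD, n = 4 each) with a log2 fold change of -0.75 that did not pass (edgeR adjusted p = 0.0636). CCR3, the receptor of CCL26, was at 1.09 ± 0.363 and 0.900 ± 0.152 CPM (edgeR adjusted p = 0.528), and CCR10, ACKR2, CCRL2 and GPR35 had adjusted p-values of 0.894, 0.839, 0.784 and 0.210. Each of these receptors but CCR6 lay under 3 CPM. The exons of ACKR2 and GPR35 overlap other genes on the same strand, and those of CCR10 overlap genes on the other strand.

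The lists of genes that act on chemokine expression gave mixed directions. Of all tested genes 7.24% were called lower and 11.0% higher, and the counts below are to be read beside these shares. Of 23 inducing cytokines and their receptors, 15 were tested. TNF, IL1A and IL1B stayed under the count filter and were not tested, and IL6 was listed at 0 FPKM in every library. IL18 (log2 fold change -0.60, edgeR adjusted p = 0.0175) and LTB (-0.62, edgeR adjusted p = 0.0423) were lower. IL6ST, the signalling receptor subunit of the IL-6 family, was higher at 0.63 (edgeR adjusted p = 0.00189), and its exons overlap a gene on the other strand. IL6ST kept its call in all 20 alternatives tried and IL18 in 16, but LTB, near 1 CPM, in 3 of 19, and its call was lost with DESeq2, with the length correction (adjusted p = 0.0616, edgeR) and with any 1 library left out. All 26 genes of the NF-kB list were tested and 23 were not called, NF-kB subunits and NFKBIA included. MYD88, the adaptor of Toll-like and IL-1 receptors, was lower at -0.27 (edgeR adjusted p = 0.00788), as was TRAF2 at -0.20 (edgeR adjusted p = 0.0343), and the kinase IRAK2 was higher at 0.22 (edgeR adjusted p = 0.0308). MYD88 kept its call in 17 of 20 alternatives, TRAF2 in 9 and IRAK2 in 10, and after the length correction IRAK2 was at 0.14 (edgeR adjusted p = 0.0650).

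Among the 20 AP-1, C/EBP and other promoter factors, 8 were higher and 1 was lower, against 11.0% and 7.24% of all tested genes, and 7 were higher and 2 lower after the length correction. CEBPB, a C/EBP factor that acts with NF-kB on the CXCL8 promoter, was at 70.2, 63.3, 70.8 and 69.3 CPM in I/R+DMSO and at 106, 110, 107 and 107 CPM in I/R+Rk2, and its log2 fold change was 0.65 (edgeR adjusted p = 0.000170). CEBPG rose by 0.52 (edgeR adjusted p = 0.000178), HIF1A by 0.40 (edgeR adjusted p = 0.000855), ATF4 by 0.43 (edgeR adjusted p = 0.00185) and JUND by 0.33 (edgeR adjusted p = 0.0165), all on the log2 scale. CEBPD was lower at -0.40 (edgeR adjusted p = 0.00164). These 6 kept their calls in all 20 alternatives. The remaining genes called higher, ATF3, DDIT3 and JUN, kept theirs in 15, 14 and 17 of 20, and JUN lost its call with the length correction. The exons of CEBPB and HIF1A overlap antisense genes, and those of HIF1A also overlap another gene on the same strand. Those of DDIT3 overlap AC022506.1 on the same strand and MARS and MBD6 on the other.

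Chemokine transcripts are short-lived and are targets of decay factors. Of 16 such factors, ZC3H12A, an endonuclease that cuts cytokine transcripts, was lower at -0.26 (edgeR adjusted p = 0.0218), ELAVL1, a stabilizing RNA-binding protein, was lower at -0.12 (edgeR adjusted p = 0.0331), and CNOT1, the scaffold of the deadenylase complex, was higher at 0.30 (edgeR adjusted p = 0.0495). ZC3H12A kept its call in 15 of 20 alternatives, ELAVL1 in 8 and CNOT1 in 6, and CNOT1 was at 0.18 after the length correction (edgeR adjusted p = 0.0852). The exons of ZC3H12A overlap MIR6732 on the same strand, and those of ELAVL1 and CNOT1 overlap genes on the other strand. The last list held 14 genes of shedding, cleavage and matrix binding, of which 9 were tested. ADAM10, the protease that sheds CXCL16 and CX3CL1 from the cell surface, was higher at 0.21 (edgeR adjusted p = 0.0198), but at 0.01 after the length correction (edgeR adjusted p = 0.932). The exons of ADAM10 overlap a gene on the other strand. SDC4, a heparan sulfate proteoglycan of the cell surface that binds chemokines, was lower at -0.19 (edgeR adjusted p = 0.0183) and kept its call in 15 of 20 alternatives. Over the 7 lists of other chemokines, receptors and regulators, 99 of 162 genes were tested, of which 9 were lower, 12 higher and 78 not called. These counts are close to the shares of all tested genes, 7.24% lower and 11.0% higher. After the length correction 12 list genes were lower and 9 higher, beside 8.57% and 8.87% of all tested genes. Most of the list genes called higher were in the AP-1 and C/EBP list.

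**Figure D5:**
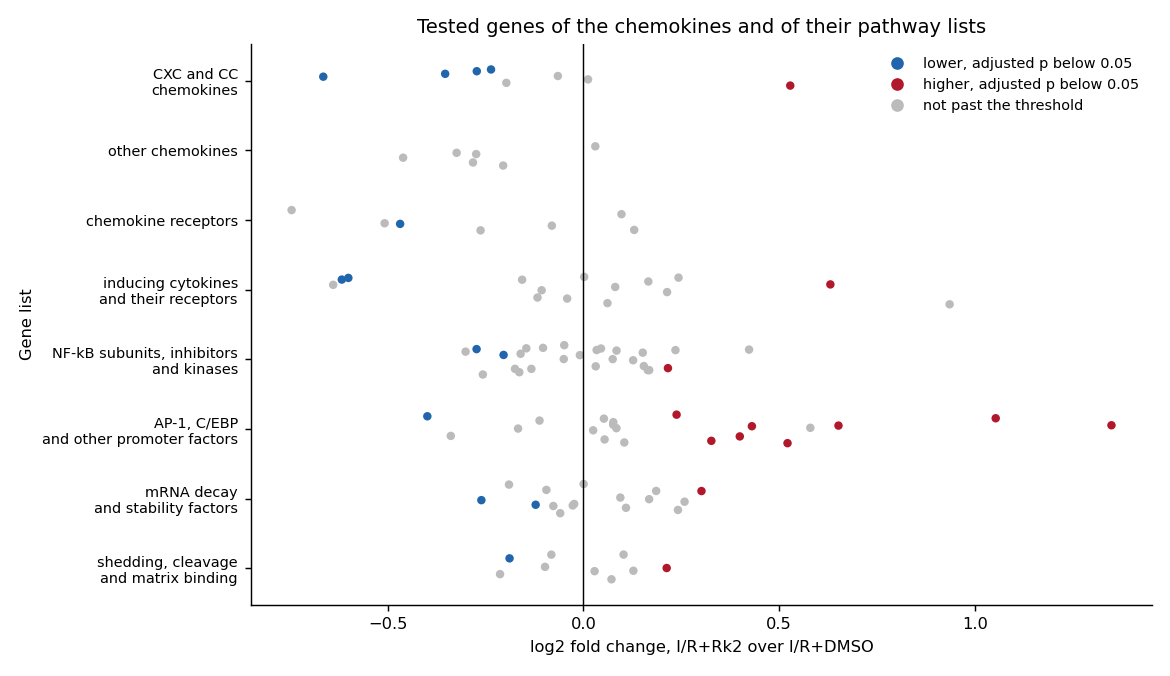
Each point is 1 tested gene at its log2 fold change of I/R+Rk2 over I/R+DMSO, with genes called lower in blue, called higher in red and others in grey, and the vertical position within a list has no meaning. The top row holds the 8 tested chemokines, and the AP-1 and C/EBP list holds 8 genes called higher and 1 called lower.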

How the data were processed

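RNA was measured by RNA-seq in 8 HuH7 libraries, prepared by the authors from 250 ng of total RNA each. The authors deposited raw counts per gene, with no scaling, for 15767 genes, and FPKM, which scales for length and depth, for 19799 genes. The submitters' processing notes name FastQC 0.11.5, HISAT2 2.2.1, StringTie 1.3.3 and hg38; the counting tool, its use of strand and its annotation are not given in the sources used here. Groups came from the deposited labels. Of the symbols with counts, 22 had been turned into dates (0.111% of counts) and were left out. The chemokines and all gene lists were chosen with earlier results of these data known.

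Genes needed 10 or more counts in 4 or more libraries, which 12910 had. Their counts were scaled by TMM and tested in edgeR 4.0.16 (robust quasi-likelihood, R 4.3.3) with condition as the only term, and called at a Benjamini-Hochberg adjusted p below 0.05 over all tested genes. Between replicates the coefficient of biological variation was 17.1%. CPM are TMM-normalized. Single values had an exact two-sided permutation test (scipy 1.17.1). Library totals were 16374082 to 30310479. Depth limited genes near the count filter, and the floor of 3 counts for CCL26 covers counting error in I/R+Rk2 only. Gene length was derived from counts and FPKM, and a loess fit in each library (span 0.5) corrected for it. The alternatives were DESeq2 1.42.0, upper-quartile scaling, library size only, no filter, at least 50 counts in every library, limma 3.58.1 on log2(FPKM + 1) and log2(FPKM + 0.1) at a mean FPKM of at least 0.5 and without a filter, voom with sample weights, a replicate block, the length correction with and without the block, a fold change above 1.5, and each library left out. The text names all 9 chemokines, each other chemokine and receptor that passed the filter, up to 6 called genes by smallest p of each further list, and the 3 nearest genes to CXCL1 and CXCL8; a few others, such as receptors listed at 0 and markers, are named after their values were seen. Alternatives counted for single genes leave out the fold change above 1.5. Sequences came from GENCODE v29 (GRCh38) and RefSeq (GRCh38.p14), where 8 of the 9 chemokines had a promoter. The edgeR fit, alone, with the length correction and with the replicate block, was checked on simulated counts with known changes. So were DESeq2, limma on log2(FPKM + 1) and voom. The simulated counts held no length trend, and the permutation test was not checked.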

Additional observations from a re-analysis of the deposited data

How the results depend on the processing

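The log2 fold changes of CXCL1 (-0.38 to -0.23), CXCL6 (-0.72 to -0.45) and CXCL8 (-0.30 to -0.21) kept their direction and call in all 20 alternative fits. Among these fits CXCL5 lost its call only in limma on log2(FPKM + 1) without a filter (adjusted p = 0.0553) and CXCL16 in the 3 limma fits on FPKM (adjusted p = 0.0522, 0.0528 and 0.0717). CXCL3 was called in none (adjusted p = 0.0597 to 0.719). CXCL2, never called, changed sign to 0.0153 with voom, 0.0481 with the length correction and 0.0516 with that and the replicate block, and ran from -0.143 to 0.00265 with 1 library left out, positive without I/R+DMSO replicate 1. CCL20 changed sign to -0.0162 with upper-quartile scaling and ran from -0.0214 to 0.0465 with 1 library left out, negative without replicate 2 of either group. Chemokines called numbered 5 with each library left out, 3 in limma on FPKM without a filter and 1, CXCL6, above 1.5-fold.

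All genes called, 2352 at first, numbered 1121 and 1106 in limma on log2(FPKM + 1) and log2(FPKM + 0.1), 971 without its filter, 1470 with the length correction and replicate block, 393 above 1.5-fold, and 1293 (without I/R+Rk2 replicate 4) to 2287 with 1 library left out. Without I/R+Rk2 replicates 2 and 3 they numbered 1467 and 1510. Genes called lower against higher numbered 935 and 1417, but 1306 and 1246 with upper-quartile scaling and 683 and 1642 with library size only. Of the 7 lists 21 genes were called, but 12 in each of the 3 limma fits, and 12 (without I/R+Rk2 replicate 4), 13 (without I/R+Rk2 replicate 2) to 22 with 1 library left out. The cause was not tested. Replicate numbers did not pair the libraries (correlations of deviations 0.02, -0.01, 0.04 and 0.08, and 1 of 4 pairs best with its own number), and with the replicate block 1815 genes, 5 chemokines and 16 list genes were called.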
